A study of Sus scrofa with 48 samples.

Results

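Apolipoproteins, the proteins that coat lipoprotein particles, were followed across 3 tissues of F2 pigs. The members were APOA1, APOA4, APOB, APOC3 and APOE, taken by name: a probe of the array was a member where its pig RefSeq accession belonged to 1 of these 5 genes, or where the study's tables of mapped genes gave it that symbol. This rule found 4 of the 43603 probes of the array, of which 2628 carried a RefSeq gene name. It named 1 probe each for APOA1, APOA4, APOC3 and APOE, and each was printed as 1 spot. No probe carried a RefSeq accession of APOB, which was not analysed here. Most probes carried other identifiers that could not be named, so APOB and further probes of the other genes may still be on the array. APOE was also among the genes that the study listed for liver on the basis of these same arrays, so its liver difference between the lines is not independent evidence.

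RNA was taken from gluteus muscle (GM), liver and kidney of 16 Swiss Large White pigs and hybridised in 1 colour to 48 arrays, 1 array per pig and tissue. The 8 F2 E offspring descended through the male line from F0 boars whose standard diet was supplemented with methionine, choline, betaine, vitamin B6, vitamin B12 and folate, and the 8 F2 C offspring from F0 boars on the standard diet alone. All F1 and F2 pigs of both lines received standard diets, so the diet that differed was a grandsire's and not their own. The lines also came from different F1 sires, so family and line cannot be told apart. The paper states that it could not separate genetic from epigenetic effects. Each line had 4 barrows (castrated males) and 4 females. Feed was withdrawn before slaughter in both lines. Few boars founded each line, and the labels give neither sire nor litter, so pigs of a line may be related; p-values measure the spread between these pigs only.

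Lipoproteins carry triglycerides and cholesterol through the plasma, and their apolipoproteins set where a particle is assembled, which enzymes act on it and which receptor takes it up. Liver and small intestine are the main sources of plasma apolipoproteins. APOA1 is the main structural protein of high density lipoprotein, APOA4 is carried on chylomicrons and high density lipoprotein, APOC3 inhibits lipoprotein lipase and the clearance of triglyceride-rich particles, and APOE is the ligand by which remnants bind receptors of the low density lipoprotein receptor family. APOE is also made by macrophages, adipocytes and astrocytes. By the order of coding genes in RefSeq's pig annotation, APOA5, APOA4, APOC3 and APOA1 lie next to each other on chromosome 9, between ZPR1 and SIK3. APOE lies on chromosome 6, between TOMM40 and APOC4.

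Signals are given as log2 of the median pixel of a spot after quantile normalization. Values set between tissues were normalized over all 48 arrays together. So were the means and sums over marker lists and the member values set against them. Other values set between lines or sexes were normalized over the 16 arrays of a tissue. A spot counted as well above background where the extraction software marked it so, and no spot was marked as saturated. In liver the spots of APOA1, APOA4 and APOC3 were marked as outliers on 2 F2 C arrays each and the spot of APOE on 1, and these values were left out. The tissue labels held: of the named marker genes, all 11 of liver were higher in liver than in kidney and in GM, all 5 of kidney were higher in kidney than in liver, and all 10 of muscle were higher in GM than in liver and in kidney, each with limma. On 2 kidney arrays, those of F2 E replicates 5 and 7, the median signal was 48, against 100 to 240.5 on the other 14 kidney arrays, and the main kidney results are given with and without them. In GM and kidney each slide held arrays of 1 line only, with 2 slides per line, so line and slide cannot be told apart there. Pig numbers fall into a lower and an upper series. In GM and kidney the line difference within a series is that of 1 F2 E slide against 1 F2 C slide. Pigs are named by the replicate number of their array in the tissue at hand; within F2 E numbers from 4 upwards do not mark the same pig in different tissues.

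APOA1, APOA4, APOC3 and APOE were each far higher in liver than in kidney and GM, and they differed in what remained outside the liver. APOC3 kept a clear kidney signal, APOA1 had no called difference between kidney and GM, and APOE was higher in GM than in kidney. Called at an adjusted p below 0.05 in limma with the pig as a block, 4 of 4 were higher in liver than in kidney, where 33.8% of 34149 probes were higher, 37% lower and 70.9% called in either direction. In liver over GM, 4 of 4 were higher, against 39.5% of 30110 probes higher and 38% lower (77.5% in either direction). In kidney over GM, 2 were higher and 1 was lower, against 40.5% and 35.6% of 34063 probes (76.1% in either direction). Since bulk tissue was measured, a smaller number of expressing cells and less RNA per cell cannot be told apart.

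**Figure D1:**
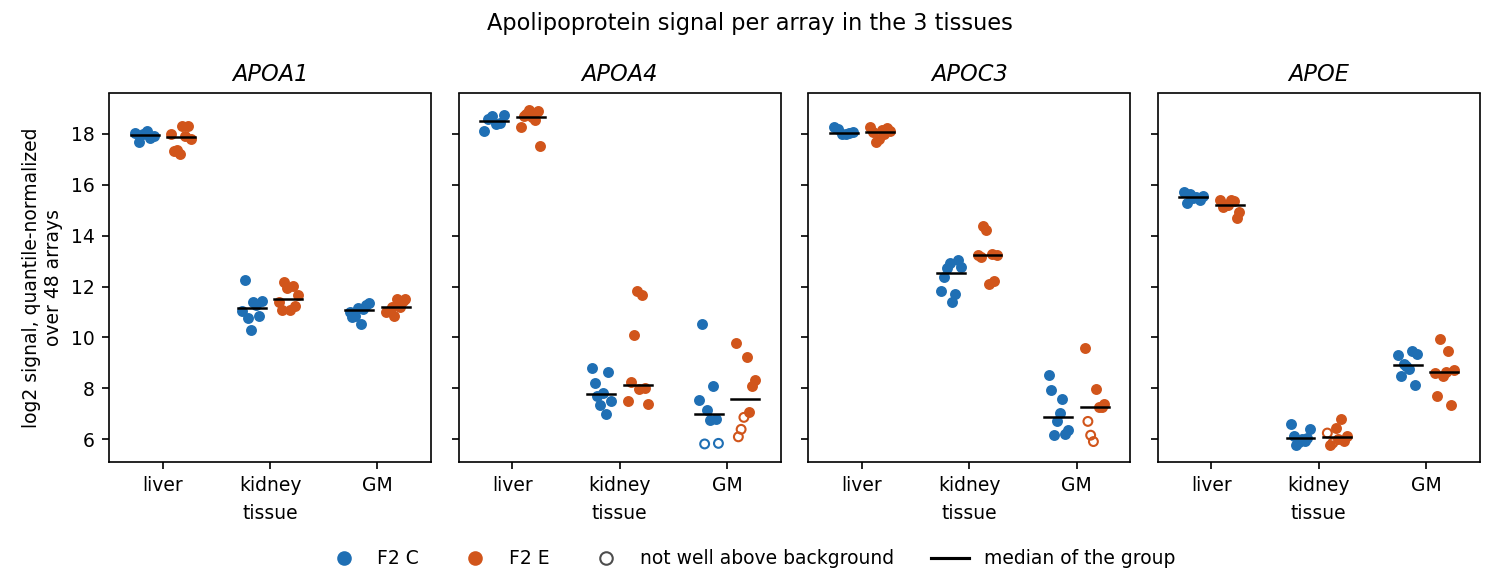
Log2 signal of the 4 apolipoproteins on each array (1 point per pig), by tissue on the x axis, quantile-normalized over 48 arrays; blue points are F2 C, orange points F2 E, open points were not well above background, and bars are group medians. Liver points of all 4 genes lie above every kidney and GM point of the same gene, from 14.70 upwards, and spots marked as outliers in liver are left out.

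APOA1, the main protein of high density lipoprotein, ranged over the liver arrays from 17.22 to 18.30 with a median of 17.93 on the log2 scale over 48 arrays (n = 14). In kidney it ranged from 10.31 to 12.24 with a median of 11.34, and in GM from 10.53 to 11.53 with a median of 11.13 (n = 16 each). Liver did not overlap with the other tissues, whereas kidney enclosed the whole range of GM. The ratio of liver over kidney was 6.46 ± 0.15 (log2, SE), or 87.8-fold, and that of liver over GM was 6.70 ± 0.15, or 104-fold, higher in 14 of 14 pigs in each case. Kidney over GM was 0.25 ± 0.15, with 11 of 16 pigs higher in kidney and an adjusted p of 0.127 in limma (95% confidence interval -0.05 to 0.55). This difference passed the threshold only without F2 C replicate 8, among the leave-one-out fits, with 0.32 and an adjusted p of 0.0407 for APOA1.

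APOA4, a protein of chylomicrons and high density lipoprotein, was the member with the widest range outside the liver. Its liver signal ran from 17.51 to 18.93 with a median of 18.61, its kidney signal from 7.00 to 11.83 with a median of 7.99, and its GM signal from 5.82 to 10.51 with a median of 7.11. In GM the spot was well above background on 11 of 16 arrays, and its raw signal ran from 39.5 to 574.5. Liver stood apart from both other tissues, which overlapped over most of their range. Liver over kidney was 9.95 ± 0.44 (log2, SE), or 991-fold, and liver over GM 10.91 ± 0.44, or 1925-fold, higher in 14 of 14 pigs. Among all probes tested these ratios ranked 40th of 34149 and 16th of 30110 from the highest. Over the alternative settings liver over kidney ran from 9.55 to 10.41 and liver over GM from 10.19 to 11.72, so the folds for APOA4, set against weak signals, depend on the background correction and scaling.

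Kidney over GM was 0.96 ± 0.42 for APOA4, with only 10 of 16 pigs higher in kidney and an adjusted p of 0.0379 in limma. This call did not hold without the 3 pigs whose kidney arrays were highest in liver markers, where the APOA4 ratio was 0.35 with an adjusted p of 0.436. It was also lost with 1 scaling to the 75th percentile in place of quantile normalization (0.68, adjusted p of 0.103), though not with the other. It was lost too with normexp background correction (0.64, adjusted p of 0.0966) and when any of 8 single pigs was left out. These were F2 C replicates 3, 4, 5 and 7, without which the APOA4 ratio was 0.90, 0.91, 0.94 and 0.90, and the F2 E pigs of kidney replicates 1, 4, 5 and 6, without which it was 0.71, 0.88, 0.78 and 0.69. In the order of levels, kidney and GM were thus neighbours. Their difference was not called for APOA1 in the main fit, and was called for APOA4 only under some settings.

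APOC3, the inhibitor of lipoprotein lipase, was the member with the highest ratio of kidney over GM. Its liver signal ran from 17.69 to 18.27 with a median of 18.06, its kidney signal from 11.41 to 14.40 with a median of 12.86, and its GM signal from 5.91 to 9.60 with a median of 7.14. The 3 tissues did not overlap, and the spot was well above background on all 16 kidney arrays and on 13 of 16 GM arrays. Liver over kidney was 5.19 ± 0.29 (log2, SE), or 36.6-fold, and liver over GM was 10.81 ± 0.29 (10.02 to 11.72 over the alternative settings), which ranked 25th of 30110 probes. Kidney over GM was 5.62 ± 0.27, or 49.1-fold, higher in 16 of 16 pigs, with a smallest difference within a pig of 3.30. Over the alternative settings this ratio for APOC3 ran from 4.84 to 6.24. Without the pigs of the 3 kidney arrays highest in liver markers it was 5.56, and without the 2 dim kidney arrays 5.57.

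APOE, the receptor ligand of remnant particles, had the opposite order outside the liver. Its liver signal ran from 14.70 to 15.73 with a median of 15.40 (n = 15), its GM signal from 7.34 to 9.94 with a median of 8.74, and its kidney signal from 5.77 to 6.79 with a median of 6.04. Every GM array lay above every kidney array, and 14 of 16 kidney arrays were well above background. Liver over kidney was 9.22 ± 0.14 (log2, SE), or 597-fold, which ranked 65th of 34149 probes, and liver over GM was 6.58 ± 0.14, or 95.8-fold, with 15 of 15 pigs higher in liver in each case. Over the alternative settings APOE liver over kidney ran from 7.99 with normexp background correction to 10.74 with the processed signal, so its fold and rank depend on how the weak kidney signal was treated. Kidney over GM was -2.64 ± 0.13, or 6.24-fold lower in kidney, and none of the 16 pigs was higher in kidney. Over the alternative settings the APOE ratio of kidney over GM ran from -3.67 to -1.69, the smallest size being that with normexp background correction.

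Without the 2 dim kidney arrays the log2 ratios of liver over kidney were 6.54 for APOA1, 9.99 for APOA4, 5.36 for APOC3 and 9.22 for APOE.

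Markers of adipocytes and macrophages, cells known to make APOE, were read beside it. Of 9 adipocyte markers tested, 7 were lower in kidney than in GM and 1 was higher, with a median log2 ratio of -3.02 (median of all probes 0.056). Of all probes, 35.6% were lower and 40.5% higher. The adipocyte list includes LPL, which is also read below as a plasma enzyme. Of 6 macrophage markers, 3 were lower in kidney and 2 were higher, from -0.98 for CD163 to 1.57 for AIF1, with a median of -0.18, so they did not move together. The mean log2 signal of the 9 adipocyte markers was taken after normalization over all 48 arrays. It ran from 9.82 to 10.90 in GM and from 7.81 to 8.47 in kidney. The part of adipocytes in the APOE difference was not tested.

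Genes of the same pathways were read for comparison, from lists of which only some members carry a RefSeq name on this array. Of 22 other apolipoproteins, 4 were named, and all 4 were higher in liver than in kidney and in GM, with median log2 ratios of 6.10 and 6.87. APOF, an inhibitor of lipid transfer between lipoproteins, had liver over kidney at 8.68 (7.79 to 9.64 over the alternative settings), and CLU, a secreted chaperone also called apolipoprotein J, at 7.63. APOR, a pig plasma protein whose probe carries the symbol C4BPA, had 4.57. APOM, which carries sphingosine-1-phosphate on high density lipoprotein, had a small ratio of liver over kidney at 0.52 and a large ratio of kidney over GM at 6.66, so it shared with APOC3 a kidney signal well above that of GM.

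Genes that assemble triglyceride-rich particles were higher in liver than in kidney in 6 of 6 cases, with a median log2 ratio of 2.75. MTTP, which loads lipid onto APOB, had 5.25, CIDEB, a lipid droplet protein of particle lipidation, had 4.86 and DGAT1, which makes triglyceride, had 2.89. In kidney over GM 2 of the 6 were higher, MTTP among them at 4.47, and 3 were lower, with a median of -0.21. Among the plasma enzymes, the high density lipoprotein esterase PON1 had a log2 ratio of liver over kidney of 2.07, and LPL, the lipoprotein lipase that APOC3 inhibits, had -2.88 (-5.66 to -1.51 over the alternative settings). LPL was also lower in liver than in GM, by a log2 ratio of -6.78, opposite in direction to all 4 apolipoproteins.

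Of 4 receptor genes tested, 1 was higher and 3 were lower in liver than in kidney. The high density lipoprotein receptor SCARB1 had a log2 ratio of 1.49, the fatty acid translocase CD36 had -2.02, and LRPAP1, the chaperone of the low density lipoprotein receptor family, had -0.37. Of 8 transcription regulators, 4 were higher and 3 were lower. SREBF1, a regulator of lipid synthesis, had 4.99, ONECUT1, a hepatocyte factor, had 2.96 (1.51 to 6.60 over the alternative settings) and the oxysterol receptor NR1H3 had 2.25. None of the 5 sterol exporters of the list carried a name on the array.

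**Figure D2:**
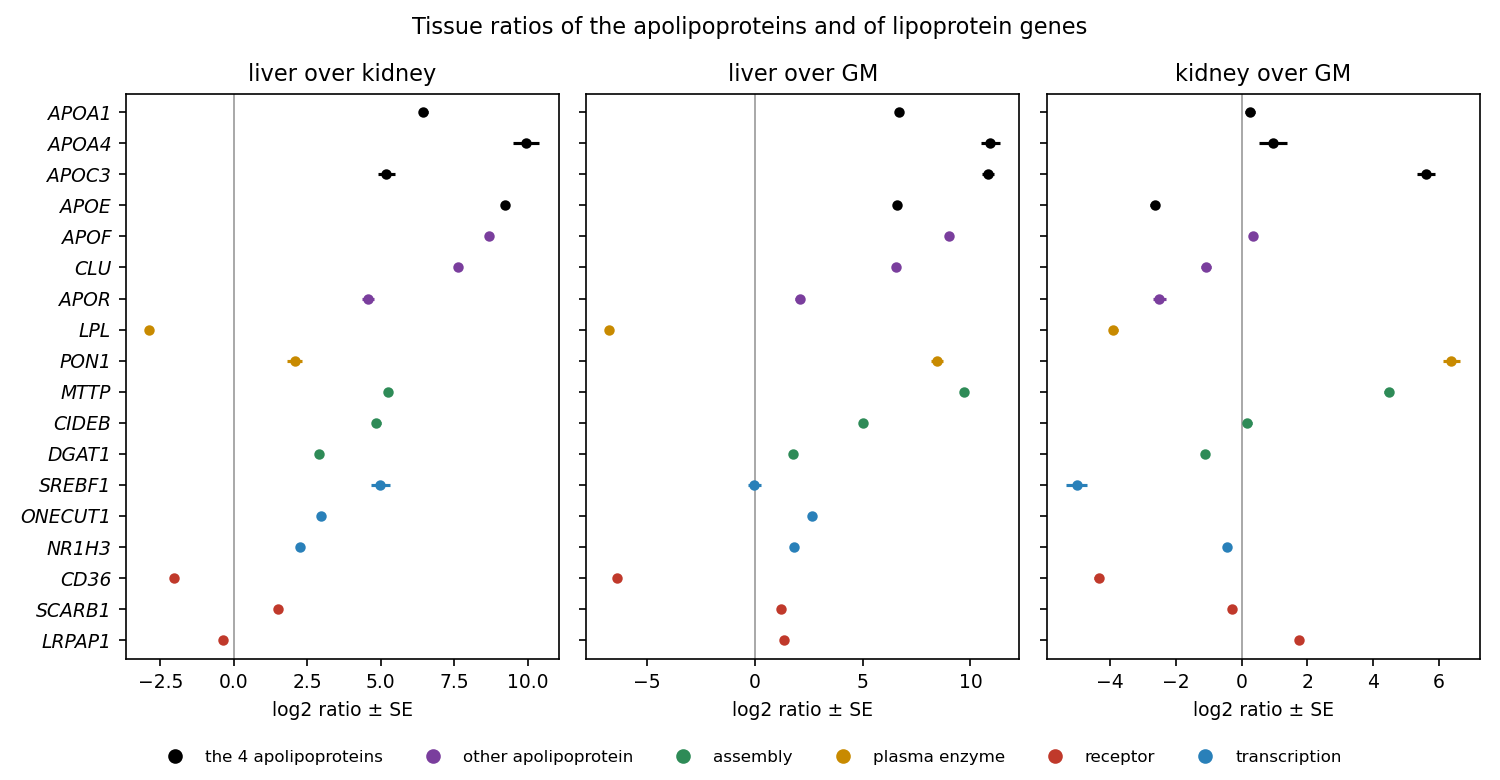
Log2 ratios between tissues (x axis) with limma's standard errors as bars for the 4 apolipoproteins (black) and for up to 3 named genes of each pathway list (colours), over 48 arrays. APOC3 and APOE lie on opposite sides of 0 in kidney over GM, at 5.62 and -2.64, and LPL and CD36 lie below 0 in each contrast; ONECUT1 was not tested in kidney over GM, and many bars are shorter than their points.

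Over the 48 arrays, the named genes whose pattern was most like that of a member were mostly genes of plasma proteins. For APOA1 they included C3 and VTN (Pearson r of 0.99 each over 46 arrays). For APOA4 they were ITIH2, VTN and AMBP, with r of 0.99, 0.99 and 0.98, and for APOE they were ITIH4, SERPING1 and C1S, with r of 0.99 each (47 arrays). For APOC3 they were F2, TTR and MTTP, with r from 0.98 to 0.99, which like it were higher in kidney than in GM, with kidney over GM at 5.38 for F2, 5.61 for TTR and 4.47 for MTTP. These values describe tissue contrasts, since between 103 and 185 of 2431 named probes had an r above 0.9 with a given member.

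Among the 16 pigs, the members were spread unevenly. In liver the SD within lines of APOC3 was 0.143 (log2), smaller than that of all but 3.11% of the probes tested, against a median of 0.293 for all probes, and those of APOA1, APOA4 and APOE were 0.295, 0.351 and 0.220. Outside the liver the spread of APOA4 was 1.25 in GM and 1.39 in kidney, larger than that of 99.5% and 99.6% of the probes. APOC3 had 0.850 in GM and 0.685 in kidney, larger than 98.2% and 91.0%. APOA1 had 0.291 in GM, close to the median of 0.288 for all probes.

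No apolipoprotein differed between the lines after adjustment over all probes. In limma 0 of 4 were called per tissue, where in GM, liver and kidney 0.769%, 0.0937% and 0.0119% of all probes were called. At an unadjusted p below 0.05, 0 of 4 passed in GM, APOE passed in liver and APOC3 passed in kidney, against 16.1%, 8.29% and 3.89% of all probes. At an unadjusted p below 0.01, APOE in liver was the only member to pass, against 5.71%, 2.45% and 1% of all probes in GM, liver and kidney. With the methods' t-test the adjusted count was likewise 0 of 4 per tissue.

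**Figure D3:**
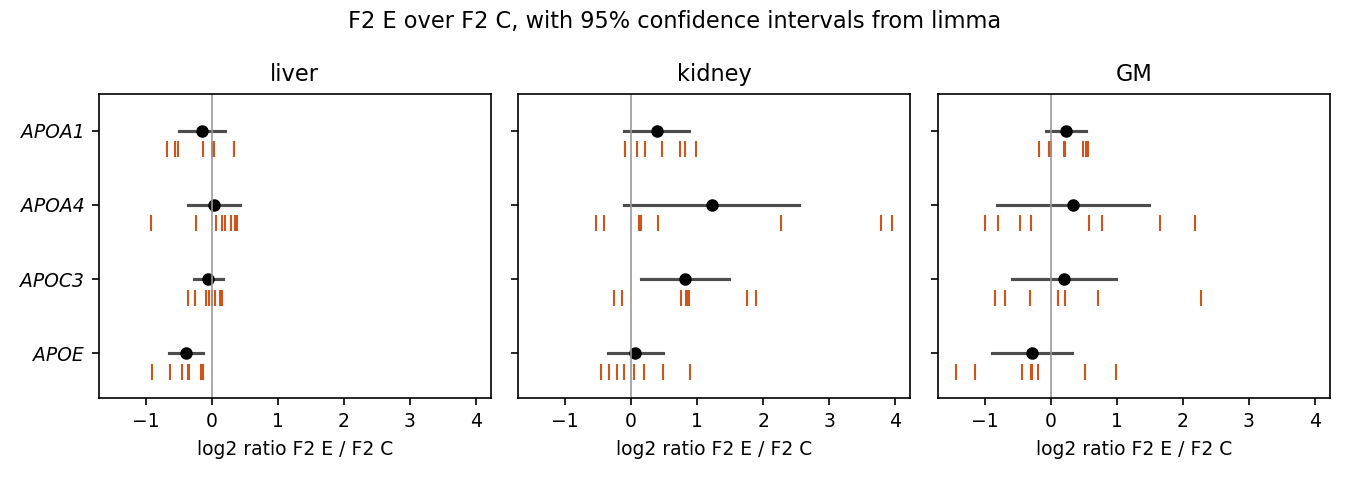
Line difference, F2 E minus F2 C in log2 (x axis), for each apolipoprotein in liver, kidney and GM, as the difference of group means (black points) with limma's 95% confidence interval (dark bars); orange ticks are the F2 E pigs, each minus the F2 C mean. The interval excludes 0 for APOE in liver (-0.65 to -0.13) and for APOC3 in kidney (0.16 to 1.48), neither of which was called after adjustment, and the APOA4 ticks in kidney fall into a group near 0 and 3 high pigs.

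APOE in liver was lower in F2 E offspring, without passing the adjusted threshold. Its signal ran from 15.46 to 15.94 with a median of 15.73 in F2 C (n = 7) and from 14.83 to 15.59 with a median of 15.37 in F2 E (n = 8). All 8 F2 E pigs lay below the F2 C median and 5 lay below the lowest F2 C pig. The line difference (F2 E minus F2 C, log2) was -0.39 ± 0.12 (SE), or 1.31-fold lower, with an adjusted p of 0.349 in limma and a p of 0.00342 in the exact permutation test for this single gene. It was -0.44 and -0.33 within the upper and lower series of pig numbers, -0.27 and -0.39 within the 2 slides that held both lines, and -0.21 in barrows and -0.57 in females. Across the alternative settings the APOE ratio ran from -0.60 to -0.32 and was not called in any.

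In the liver the other members showed less. APOA1 had a log2 ratio of -0.14 ± 0.16 (95% confidence interval -0.49 to 0.20), APOA4 of 0.036 ± 0.19 (-0.36 to 0.43) and APOC3 of -0.049 ± 0.10 (-0.27 to 0.17). The interval of APOC3 was the narrowest of the 4, and neither it nor that of APOA4 reached -0.39, the value of APOE. All 3 changed sign between the upper series of pig numbers (2 F2 C arrays) and the lower, with 0.18 and -0.45 for APOA1, -0.19 and 0.21 for APOA4 and 0.072 and -0.15 for APOC3.

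APOC3 in kidney was higher in F2 E offspring, again without passing the adjusted threshold. Its signal ran from 11.94 to 13.52 with a median of 13.04 in F2 C and from 12.60 to 14.74 with a median of 13.69 in F2 E (n = 8 each). Of the F2 E pigs, 6 lay above the highest F2 C pig and 2, replicates 2 and 8, lay within the range of F2 C. The log2 ratio was 0.82 ± 0.32 (SE), or 1.77-fold, with an adjusted p of 1.00 in limma and a p of 0.0329 in the exact permutation test. It was 0.44 in the upper and 1.2 in the lower series of pig numbers, and 1.05 in barrows and 0.59 in females. Each series here set 1 slide of F2 E against 1 of F2 C, and the lower series held both dim arrays. Without the 2 dim kidney arrays, both of F2 E, the APOC3 ratio was 0.64. On these arrays raw signals of 6536 and 2671 became 14.74 and 13.68 after quantile normalization, among the 5 highest values of the gene.

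APOA4 in kidney had the largest line difference in size and the largest error. In F2 C it ran from 7.42 to 9.37 with a median of 8.30, and in F2 E from 7.86 to 12.35 with a median of 8.68. Of the F2 E pigs, 3 lay above every F2 C pig, namely replicate 6 at 12.35, replicate 1 at 12.19 and replicate 5 at 10.66, while the other 5 lay within the range of F2 C. The log2 ratio was 1.22 ± 0.63 (SE), with an adjusted p of 1.00 in limma, a p of 0.117 in the exact permutation test and a 95% confidence interval of -0.11 to 2.54. APOA1 in kidney had a log2 ratio of 0.39 ± 0.23 (-0.10 to 0.88) and APOE of 0.064 ± 0.20 (-0.35 to 0.48). Without the 2 dim arrays APOA1 had 0.32 and APOE 0.11.

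The kidney arrays with high APOA4 were in part those with high signals of hepatocyte genes. ALB, the plasma albumin gene, ran over the kidney arrays from 5.64 to 15.88 and was highest in F2 E replicate 1 (15.88), F2 C replicate 5 (14.18) and F2 E replicate 6 (13.84). HP, the haemoglobin-binding haptoglobin, was at 12.98, 11.39 and 10.99 in the same pigs, its 3 highest kidney values. Over the whole list of 11 named liver markers, the summed linear signal of the kidney arrays ran from 20709 to 97100 in F2 E and from 18128 to 33945 in F2 C. The mean log2 signal of the list had the opposite order of medians. It was 8.54 in F2 E (8.24 to 10.40) and 8.63 in F2 C (8.00 to 9.43). CYP7A1, the rate-limiting enzyme of bile acid synthesis, was not well above background on any kidney array. Without the 3 arrays highest in liver markers (these 3 pigs) the kidney line differences were 0.47 for APOA4, 0.58 for APOC3, 0.24 for APOA1 and -0.047 for APOE. FABP2, an enterocyte gene, was well above background on 1 of 16 kidney arrays. Of the 3 named enterocyte genes, 2 were tested in kidney over GM, and both were higher in kidney, with a median log2 ratio of 1.72. In liver over kidney 1 was higher and 1 was lower. F2 E replicate 5, with the third highest APOA4 in kidney, had ALB at 8.98, below 11 of the other kidney arrays, and was 1 of the 2 dim arrays. Without those 2 arrays the kidney line difference of APOA4 was 1.32. The part of liver RNA in the kidney values was not tested.

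**Figure D4:**
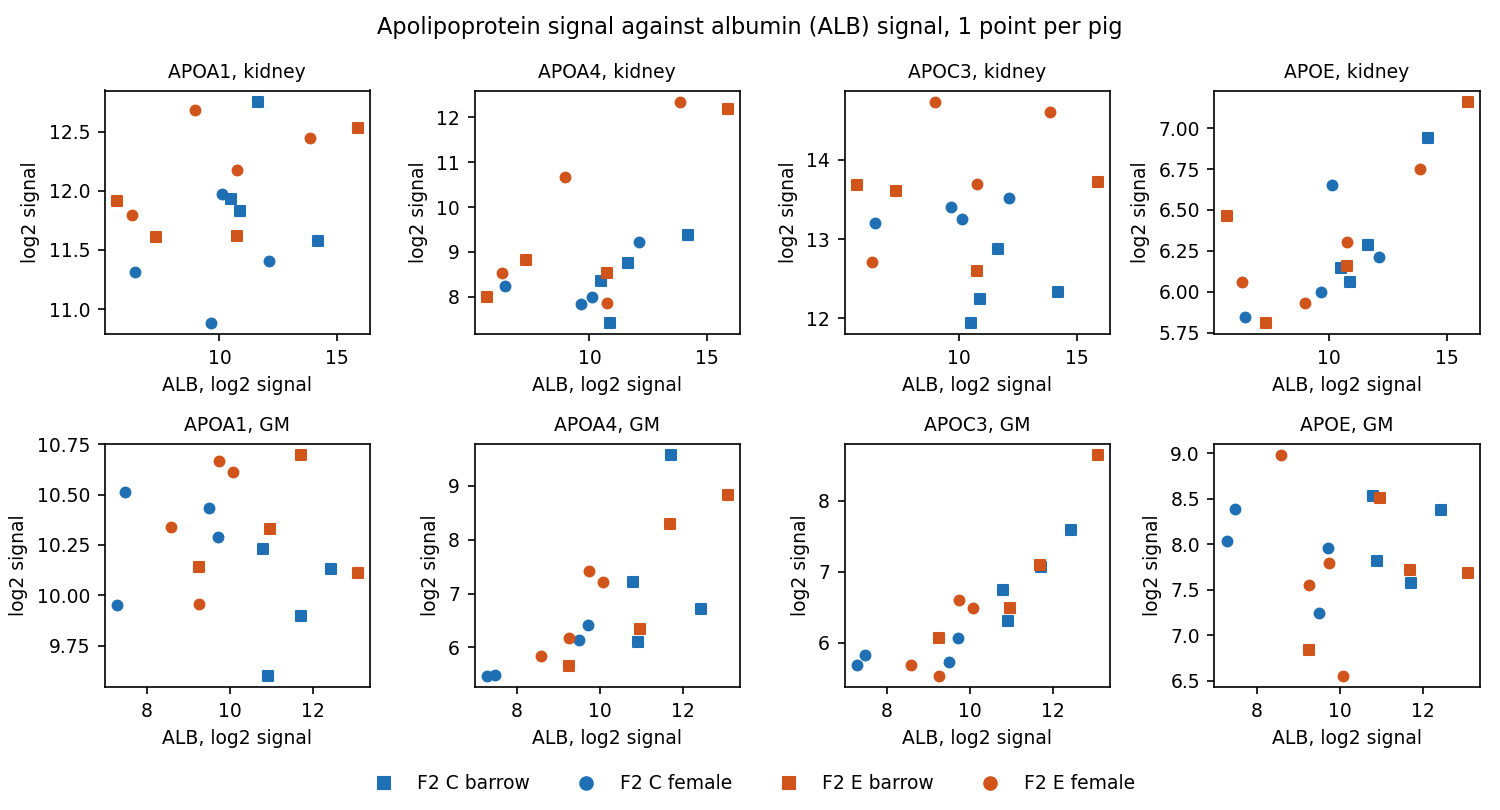
Log2 signal of each apolipoprotein (y axis) against that of albumin, ALB (x axis), on the 16 kidney arrays (upper row) and the 16 GM arrays (lower row), 1 point per pig; squares are barrows, circles females, blue F2 C and orange F2 E. APOA4 and APOC3 in GM and APOE in kidney rise along the ALB axis, whereas APOA1 in GM does not; ALB in kidney runs from 5.64 to 15.88.

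The 12 relations of members with liver markers were chosen after the data were seen, so their p-values can overstate the support. Permutation p-values were adjusted over these 12 by Benjamini-Hochberg. Over pigs, the mean log2 signal of the 11 liver markers was set against each member in each tissue. In GM it went with APOC3 (Pearson r = 0.91, adjusted p of 0.000120, the smallest that these permutations can give; Spearman rho = 0.89, adjusted p of 0.000180) and with APOA4 (r = 0.84, adjusted p of 0.000240; rho = 0.87, adjusted p of 0.000180). Without the 2 farthest pigs r was 0.87 for both, and it lay between 0.75 and 0.96 within barrows, within females, within either line and within either number series. In kidney it went with APOE (r = 0.83, adjusted p of 0.000840; rho = 0.62, adjusted p of 0.0308), with 0.64 without the 2 farthest pigs, and with APOA4 (r = 0.82, adjusted p of 0.00261; rho = 0.71, adjusted p of 0.0120). For kidney APOA4 r fell to 0.45 without the 2 farthest pigs, so this relation rests largely on them. The values for APOC3 in kidney (r = 0.20), APOA1 in GM (r = 0.013) and APOE in GM (r = -0.038) did not pass. In liver itself APOA4 went the other way by rank (rho = -0.72, adjusted p of 0.0135), with a Pearson r of -0.55 that did not pass (adjusted p of 0.0884).

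Members were also compared with each other over pigs, as 6 pairs per tissue. In GM only APOA4 and APOC3 varied together (Pearson r = 0.76, permutation p of 0.00114, adjusted p of 0.00684; Spearman rho = 0.80, adjusted p of 0.00222). This r was 0.71 without the 2 farthest pigs, 0.65 in F2 C, 0.89 in F2 E, and 0.75 and 0.88 in the lower and upper series of pig numbers. In liver 0 of 6 pairs passed after adjustment by permutation; the nearest was APOA1 with APOC3 (r = 0.66, adjusted p of 0.0802; rho = 0.47, adjusted p of 0.283; n = 13), with 0.77 in F2 E and -0.24 in F2 C. In kidney 0 of 6 pairs passed, and the 3 pairs of APOA4 with another member had r from 0.54 to 0.58, each with an adjusted permutation p of 0.0579.

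The most alike named genes were also read within liver. For APOA4 they were ITGAV, an integrin subunit, ABHD5 and PLIN2, both lipid droplet proteins, with r of 0.97, 0.92 and 0.91 over 14 arrays. For APOE they were CYP2A19, CRYZ and DPYD, with r of 0.88, 0.87 and 0.82. For APOA1 they were SIRT2, IRF3 and HSD3B1 (0.92, 0.91 and 0.90) and for APOC3 AZIN1, RTFDC1 and VTN (0.93, 0.92 and 0.92). These are the highest of 2205 or 2206 values on few arrays and are given as a description.

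In GM no apolipoprotein was called between the lines. The line differences (log2) were 0.23 ± 0.14 for APOA1, 0.33 ± 0.55 for APOA4, 0.20 ± 0.38 for APOC3 and -0.28 ± 0.29 for APOE (SE, adjusted p in limma from 0.448 to 0.828). For APOA4 the interval was wide, from -0.82 to 1.48, and the ratio was 1.08 in the upper and -0.41 in the lower series of pig numbers. It fell to 0.068 when F2 E replicate 6 was left out and was 0.76 when F2 C replicate 6 was, the extremes over single pigs for APOA4.

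Whether a line difference depended on the tissue was tested by contrasts over the 48 arrays with the pig as a random block. In limma 0 of 4 members were called for liver against kidney, liver against GM or kidney against GM, where 0.0205%, 0.123% and 0.047% of all probes were called. At an unadjusted p below 0.05, where 2.3%, 7.55% and 5.73% of all probes passed, APOA1 was the only member, in liver against kidney, with a difference of -0.56 ± 0.28 (SE) and an adjusted p of 1.00. For APOC3 the same contrast was -0.93 ± 0.52 and for APOA4 -1.17 ± 0.82.

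Sex was compared in limma with the line as a covariate, whereas the exact permutation tests of sex did not include the line. In limma 0 of 4 members were called in GM, liver and kidney, where 0.121%, 0.121% and 0.0921% of all probes were called. At an unadjusted p below 0.05, APOA4 and APOC3 passed in GM, none in liver and APOC3 in kidney, against 3.86%, 14.2% and 0.939% of all probes. Barrows were the higher sex for APOC3 in GM and the lower sex in kidney.

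APOC3 in GM ran in barrows from 6.06 to 8.65 with a median of 6.90 and in females from 5.53 to 6.60 with a median of 5.77 (n = 8 each). Among the F2 C pigs all 4 barrows lay above all 4 females, and among the F2 E pigs the sexes overlapped. The log2 ratio of barrows over females was 1.05 ± 0.29 (SE), with an adjusted p of 0.930 in limma and a p of 0.00295 in the exact permutation test. APOA4 in GM had a ratio of 1.07 ± 0.50, with an adjusted p of 0.998 and an exact permutation p of 0.0796. In kidney, APOC3 ran from 11.94 to 13.72 in barrows and from 12.72 to 14.74 in females, and the ratio was -0.77 ± 0.26, with an adjusted p of 1.00 and an exact permutation p of 0.0491, and it was -0.72 without the 2 dim arrays. Here too all 4 F2 C barrows lay on 1 side of all 4 F2 C females, now below them.

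Of the 8 liver markers tested between the sexes in GM, 0 were called. ALB had a log2 ratio of barrows over females of 2.41 ± 0.50 (adjusted p of 0.103 in limma) and HP of 1.18 ± 0.24 (adjusted p of 0.0876), and the median ratio of the 8 was 0.71, against 0.01 for all probes. The mean log2 signal of the 11 named markers ran from 6.63 to 8.56 in barrows and from 6.34 to 7.67 in females, and F9 and CYP7A1 were not well above background on any GM array. Without the 3 GM arrays highest in liver markers, all of barrows (F2 E replicate 6 and F2 C replicates 5 and 6), the ratio of barrows over females was 0.58 for APOC3 and 0.40 for APOA4. The part of these markers in the sex difference was not tested.

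Whether the line difference depended on sex was tested within each tissue, and 0 of 4 members were called in limma, as was no probe at all (0% of 25591 to 33662 probes). At an unadjusted p below 0.05, 886 probes (3.46%) passed in GM, 506 (1.76%) passed in liver and 884 (2.63%) passed in kidney. APOA1 in kidney was the only member among them, with a line ratio of -0.11 in barrows and 0.88 in females, an interaction of -0.99 ± 0.42 (SE) and an adjusted p of 0.906. Of the pathway genes, none was called between the lines or between the sexes in any tissue.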

How the data were processed

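Spots were read by the authors with Feature Extraction 10.5.1.1 (Agilent) per the file headers, and the intensity of each spot on the 48 arrays was deposited without normalization between arrays. Tables of log2 values, ratios and p-values per tissue that the authors also deposited were not used. An array held 45220 spots, and 43603 probes remained after controls were left out.

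The median pixel intensity was quantile-normalized and put on the log2 scale. This was done within a tissue for lines and sexes, and over 48 arrays for tissues and for marker list means and sums. Spots marked as outliers were removed after normalization. A probe was kept if 50% or more of the arrays in 1 group had it well above background with a linear signal over 25, and if each group had 2 or more arrays. Groups were compared with limma 3.58.1 (R 4.3.3), with Benjamini-Hochberg adjustment over all probes tested and calls at an adjusted p below 0.05. Tissue contrasts had the pig as a fixed block and tissue-by-line contrasts as a random block (estimated correlation 0.0304). Single members were also tested by the exact two-sided permutation of the arrays (8 against 8, fewer in liver where spots were removed), and correlations by two-sided permutation. The same fits were tested on simulated data with known changes. Standard errors and intervals are limma's, and the number of arrays limits the precision.

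Probes were named through RefSeq accessions, which covers 2628 of them. Named besides the members were pathway genes called between lines, up to 3 genes per list with the largest liver over kidney ratio, and the 3 named genes most alike in pattern; marker genes and APOM, F2, TTR, HP and ALB were named after their values were seen. 1 further gene that this rule names is not reported here. Members and lists were chosen with earlier results of these data known.

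Replicate numbers of the labels were not used in the main fits to tie F2 C to F2 E pigs, which are different animals. The correlation of deviations was over 0.1 for 2 of 8 pairs in GM, for 6 in liver and for 3 in kidney. The liver count does not by itself speak against a tie, and the replicate block is given with the alternatives. Pig numbers fall into a lower and an upper series, used for within-series values.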

Additional observations from a re-analysis of the deposited data

Results flagged for a closer look

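Of the 24 groups of pigs in which a member was examined for a single pig far from the others (4 genes, 3 tissues and 2 lines), 2 held such a pig, where chance gives about 1 in 20 groups. APOA4 in GM of F2 C replicate 6, a barrow, was at 9.58 on the log2 scale, and the gap to the next F2 C pig took up 0.573 of the range of the group. APOA4 in liver of F2 E replicate 3, a female, was at 17.75, below the other F2 E pigs, with a gap of 0.528 of the range, just over the critical share for 8 pigs.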

How the results depend on the processing

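The alternatives were the processed signal or the median signal scaled to the 75th percentile, normexp on the median signal, joint normalization, presence filters, marked spots kept or removed first, covariates and blocks, the methods' t-test and each pig left out; fits without 2 dim kidney arrays or without the 3 arrays highest in liver markers were chosen after seeing the data. The authors' normalized values were planned and not run. Of the apolipoproteins 0 of 4 were called between lines or sexes under any alternative. A filter for probes well above background on all arrays left only APOA1 and gave 1 of the apolipoproteins called in liver over kidney, 1 in liver over GM and 0 in kidney over GM. Leaving out a pig gave 2 to 4 called in kidney over GM, and fits without the pig as a block kept the count at 3. In liver 1 of 6 pairs of apolipoproteins passed with either scaling to the 75th percentile or with marked spots kept, where 0 passed otherwise. The median-signal scaling moved the median of all probes by 0.36 in liver over kidney, -0.19 in liver over GM and -0.60 in kidney over GM; the processed signal moved the last by -0.10. With the replicate number as a block, APOA4 in liver between lines was -0.023 and APOE -0.32, and 0 members were called. Some differences within their error turned sign. Between lines, leaving out single pigs gave -0.10 to 0.37 for APOC3 in GM, -0.041 to 0.17 for APOA4 in liver and -0.054 to 0.16 for APOE in kidney, and APOE in kidney was -0.049 with the processed signal and -0.047 without the 3 arrays. Between sexes, leaving out single pigs gave -0.10 to 0.27 for APOE in GM, -0.0092 to 0.18 for APOA1 in liver, -0.27 to 0.010 for APOA4 in liver, -0.015 to 0.24 for APOA1 in kidney and -0.57 to 0.25 for APOA4 in kidney. APOA4 between sexes was also 0.0078 in liver with slide as a random block and 0.20 in kidney without the 2 dim arrays, and APOE in kidney was -0.052 with the median-signal scaling. The cause was not tested.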
